A study of Mus musculus with 8 samples.

Results

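The keratin genes of the mouse colon were described here as a family, from the simple epithelial keratins of the gut lining to those of skin and hair. The members are all probes on the bead array whose gene symbol is Krt followed by a number, with or without a final letter, and keratin-associated proteins were left out. This gave 47 of the 16593 named genes on the array, read by 54 of its 25697 probes. Of these probes 29, for 27 genes, were detected on at least 4 of the 8 arrays and were tested, and 12 probes were detected on no array.

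Keratins form the intermediate filaments of epithelial cells, and each filament is built from pairs of a smaller acidic (type I) and a larger basic (type II) keratin. A single-layered epithelium such as that of the colon makes Krt8 with its partner Krt18, together with Krt19, Krt20 and, in some organs, Krt7. Stratified epithelium makes Krt5 and Krt14 in its basal layer, and its upper layers switch to Krt1 and Krt10 in skin or to Krt4 and Krt13 in moist internal linings. Krt6a, Krt6b, Krt16 and Krt17 mark hair follicle layers and activated or wounded skin, and the hair shaft and the sheaths around it have keratins of their own.

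RNA had been taken from whole colons of mice on a C57BL/6 background, with 4 colons in each group. The wildtype mice were Villin-CreERT2-Ihh+/+ and the knockout mice Villin-CreERT2-Ihhfl/fl, so both carried the tamoxifen-activated recombinase, which the Villin promoter restricts to the gut epithelium. Both groups had received 1 mg tamoxifen on each of 5 days and were killed at day 7. Ihh encodes Indian hedgehog, a signal sent by the gut epithelium to the mesenchyme below it, and the design addresses what follows in the colon from its epithelial deletion. The age and sex of the mice are not given in the labels, and nothing states that the numbered colons are separate mice, so p-values measure the spread between these samples. All values below are log2 intensities after background correction and quantile normalization, and "detected" means a detection p-value under 0.05. Mean raw intensity was 902 to 1258 per array and 14465 to 15040 probes were detected. By their Xist and Y-linked signals, wildtype 1 and knockout 2, 3 and 4 looked male and the rest female. In whole tissue, fewer cells of a type and less RNA per cell cannot be told apart.

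The type I keratins on the array lie on chromosome 11 and the type II keratins on chromosome 15, apart from Krt18, a type I gene on chromosome 15. RefSeq promoter windows (GRCm38.p6, 250 bases before to 50 after a start site) were found for 32 of the 47 genes, in 33 windows. The letters TATAAA on either strand, the core of a TATA box, were present in 16 of these 33 windows and in 13.6% of all 32851 windows of that length. They stood in 11 of 14 windows of hair shaft and root sheath keratins, in 3 of 14 windows of the other skin keratins and in 2 of 4 of simple keratins. The palindrome TGANTCA, bound by AP-1 factors, was present in 2 of the 33 keratin windows, both of Krt13, against 7.81% of all windows. The letters GGGCGG of the GC box, on either strand, were present in 2 keratin windows (Krt7 and Krt75), against 35.7% of all. TATAAA and TGANTCA do not overlap in the windows shown. A match is a description of these letters and shows no binding. Matches were counted at any place in a window. In the windows shown, TATAAA matches began at -29 from the start site in Krt20 and -31 in Krt34. They began at -15 in Krt27 and at -3 and -1 in Krt8. The windows below stand for keratins of different kinds described in the results: Krt8 and Krt20 (simple epithelium), Krt13 (highest in wildtype 4) and Krt27 and Krt34 (hair pattern). They are written 5′ to 3′ with TATAAA and TGANTCA matches in capitals; in Krt8 matches on both strands overlap.
Krt8 (chr15:102004293-102004592, minus strand): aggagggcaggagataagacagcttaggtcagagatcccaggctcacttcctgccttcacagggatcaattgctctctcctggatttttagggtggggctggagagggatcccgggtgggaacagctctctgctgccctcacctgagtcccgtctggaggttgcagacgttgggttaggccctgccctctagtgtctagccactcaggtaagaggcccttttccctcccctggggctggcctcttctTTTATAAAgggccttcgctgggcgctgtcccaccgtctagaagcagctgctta
Krt20 (chr11:99438104-99438403, minus strand): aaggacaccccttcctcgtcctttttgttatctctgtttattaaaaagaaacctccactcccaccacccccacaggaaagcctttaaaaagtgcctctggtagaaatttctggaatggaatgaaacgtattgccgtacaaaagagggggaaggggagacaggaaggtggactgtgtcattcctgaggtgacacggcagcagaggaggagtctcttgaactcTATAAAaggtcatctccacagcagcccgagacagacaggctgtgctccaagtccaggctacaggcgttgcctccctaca
Krt13 (chr11:100121517-100121816, minus strand): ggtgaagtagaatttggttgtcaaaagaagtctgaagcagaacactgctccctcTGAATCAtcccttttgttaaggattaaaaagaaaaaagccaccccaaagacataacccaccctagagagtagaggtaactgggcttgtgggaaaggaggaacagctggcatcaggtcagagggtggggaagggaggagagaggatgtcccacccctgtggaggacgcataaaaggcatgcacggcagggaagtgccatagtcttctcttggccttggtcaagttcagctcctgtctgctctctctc
Krt27 (chr11:99351069-99351368, minus strand): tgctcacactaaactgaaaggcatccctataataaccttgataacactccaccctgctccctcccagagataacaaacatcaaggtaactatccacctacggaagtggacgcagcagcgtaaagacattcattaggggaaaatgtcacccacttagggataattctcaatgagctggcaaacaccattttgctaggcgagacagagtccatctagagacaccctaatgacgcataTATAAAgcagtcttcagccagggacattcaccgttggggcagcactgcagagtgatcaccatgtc
Krt34 (chr11:100041505-100041804, minus strand): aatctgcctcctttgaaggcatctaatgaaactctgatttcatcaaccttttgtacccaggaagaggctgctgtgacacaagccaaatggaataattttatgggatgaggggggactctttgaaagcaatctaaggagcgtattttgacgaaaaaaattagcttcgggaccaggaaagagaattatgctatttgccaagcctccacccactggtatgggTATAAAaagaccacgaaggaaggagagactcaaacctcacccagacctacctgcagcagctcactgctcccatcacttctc

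The simple epithelial keratins were detected in every colon, and Krt7 and Krt18 were highest in knockout 4. Krt8, the type II keratin of simple epithelia, had log2 intensities of 15.56, 15.65, 15.78 and 15.64 in wildtype 1 to 4 and 15.71, 15.70, 15.73 and 15.71 in knockout 1 to 4. This probe ranked between place 4 and place 18 of all probes on every array, with raw intensities of 48349 to 61835, close to the highest of each array (55224 to 63175). A probe at that end of the scale has little room to show a change, so its small span does not show a constant level. Krt18, the partner of Krt8, had 11.95, 11.99, 12.16 and 11.96 in wildtype 1 to 4 and 12.28, 12.09, 12.09 and 13.08 in knockout 1 to 4. Krt7, a type II keratin of ducts and other simple epithelia, had 11.09, 11.16, 11.35 and 11.20 in wildtype 1 to 4 and 11.29, 11.19, 11.35 and 12.45 in knockout 1 to 4. Knockout 4 thus stood above the other 7 colons in both, while the remaining knockout colons lay within or near the wildtype range.

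Krt19, a small type I keratin of simple epithelia, had 13.41, 13.75, 13.75 and 13.45 in wildtype 1 to 4 and 13.89, 13.68, 13.76 and 14.00 in knockout 1 to 4. Krt20, a keratin of differentiated gut epithelial cells, had 13.99, 13.84, 13.84 and 13.74 in wildtype 1 to 4 and 13.75, 13.89, 13.72 and 13.60 in knockout 1 to 4. In both genes the groups overlapped, and in knockout 4 Krt19 was at its highest and Krt20 at its lowest of the 8 colons.

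**Figure D1:**
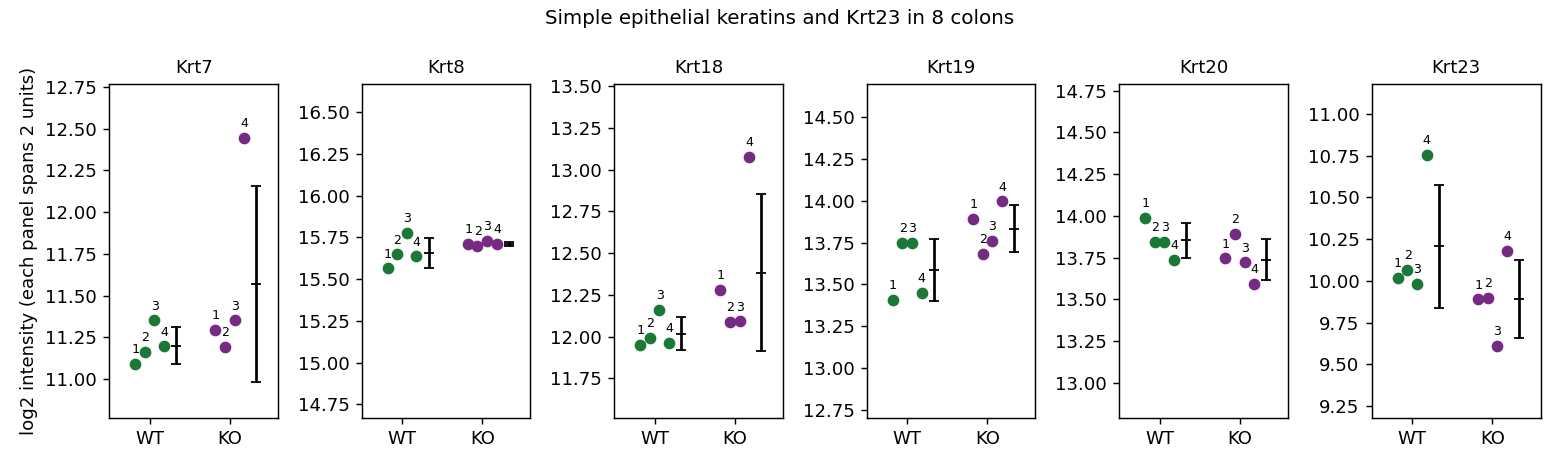
Log2 intensity of Krt7, Krt8, Krt18, Krt19, Krt20 and Krt23 in 4 wildtype (WT) and 4 knockout (KO) colons. Points are single colons with their numbers, bars are mean and SD, and each panel spans 2 log2 units; knockout 4 lies above the others for Krt7 (12.45) and Krt18 (13.08), and wildtype 4 for Krt23 (10.75).

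No simple keratin passed the threshold between genotypes. The differences, knockout minus wildtype, were 0.37 (SE 0.217) for Krt18, 0.37 (SE 0.260) for Krt7, 0.25 (SE 0.132) for Krt19, 0.06 (SE 0.0984) for Krt8 and -0.12 (SE 0.112) for Krt20. Their limma adjusted p-values were 0.515 to 0.839 with 4 colons a group. The 95% intervals ran from -0.12 to 0.86 for Krt18, from -0.17 to 0.28 for Krt8 and from -0.37 to 0.14 for Krt20. The median difference over the 5 genes was 0.25, beside -0.0047 over all 10184 named genes tested. It rested in part on knockout 4: without that colon Krt7 was at 0.077 and Krt18 at 0.13, and the median was 0.077. With array position on the beadchip as a linear term the median was -0.0189; wildtype colons held positions 1 to 4 and knockout colons 5 to 8, so position ran with genotype and they are only partly separable.

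Genes that define the intestinal epithelium were also measured. Of 8 listed genes on the array 7 were detected in every colon, among them Cdx2 and Cdx1, transcription factors of the gut epithelium, Vil1, which encodes villin, and Lgals4, a galectin of gut epithelium. Fabp2, a fatty acid binding protein most abundant in the small intestine, was detected in 0 colons. The summed intensity of the list was 80691 to 86909 in wildtype and 79434 to 86080 in knockout colons, with the lowest value in knockout 4. Most of that sum is Lgals4, at 15.70 to 15.75 on the log2 scale and so at the top of the array's range, and the sum can hide changes in the others. Spans over the colons were 2.45 for Slc26a3, 0.88 for Cdh17, 0.83 for Vil1 and 0.75 for Cdx2. In knockout 4 Slc26a3, the chloride exchanger of surface colonocytes, had a log2 intensity of 6.03, against 7.62 to 8.48 in the other colons; this gene was singled out after its values were seen. Its part in the Krt7 and Krt18 values was not tested.

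Keratins of skin and hair were also present in the colon RNA, many of them in amounts that differed widely between colons of the same genotype. They are counted here together with 6 keratins of internal stratified linings and cornea (Krt4, Krt12, Krt13, Krt24, Krt76 and Krt78). Of these 39 genes on the array, 8, 24, 24 and 17 were detected in wildtype 1 to 4 and 15, 24, 12 and 21 in knockout 1 to 4. Wildtype 1 and knockout 3 had the fewest, and wildtype 2, wildtype 3 and knockout 2 the most. The 5 simple keratins were detected in each of them.

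**Figure D2:**
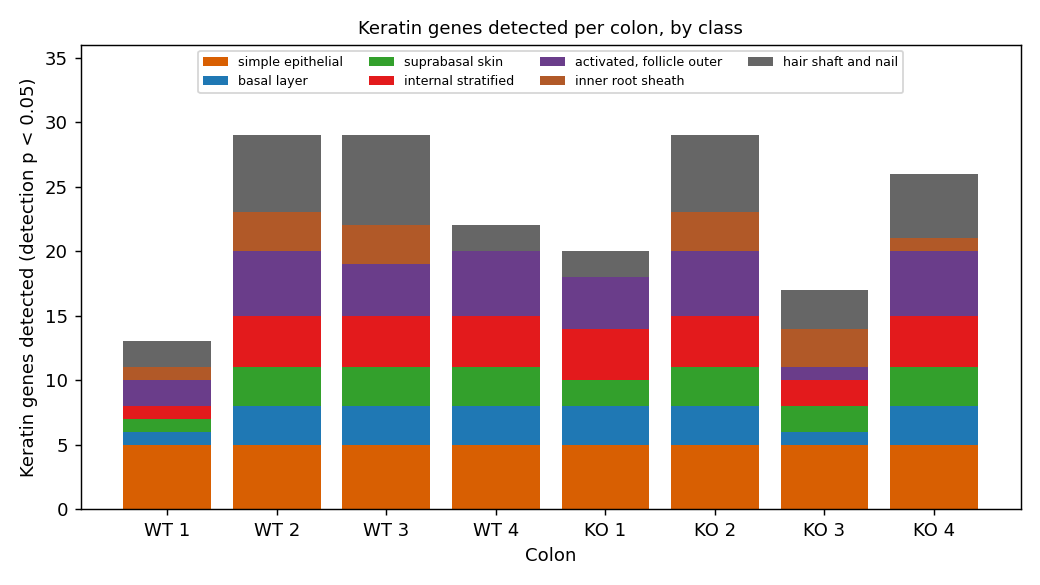
Number of keratin genes with a detection p-value under 0.05 in each wildtype (WT) and knockout (KO) colon, stacked by class. The 5 simple epithelial keratins are present in each bar, and the skin and hair classes add between 8 genes (wildtype 1) and 24 genes (wildtype 2, wildtype 3 and knockout 2).

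Basal layer keratins differed between colons, most of all Krt14. Krt14, the type I keratin of basal cells, had log2 intensities of 6.63, 12.47, 12.08 and 15.21 in wildtype 1 to 4 and 10.51, 12.48, 7.79 and 11.45 in knockout 1 to 4. Krt5, its type II partner, had 5.13, 7.82, 7.08 and 9.75 in wildtype 1 to 4 and 6.07, 7.23, 5.25 and 6.82 in knockout 1 to 4. Krt15, another basal keratin that also marks follicle stem cells, had 5.23, 7.66, 7.81 and 7.59 in wildtype 1 to 4 and 6.37, 7.53, 5.31 and 7.31 in knockout 1 to 4. Krt5 and Krt15 were detected in 6 of 8 colons, wildtype 1 and knockout 3 being the exceptions, and these were the lowest colons for Krt14 as well. Wildtype 4 was highest for Krt14 and Krt5, and wildtype 3 was highest for Krt15.

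The pair of the moist internal stratified linings followed the same order at the ends. Krt13, its type I member, had 4.49, 10.49, 10.33 and 13.16 in wildtype 1 to 4 and 10.17, 11.02, 5.31 and 9.00 in knockout 1 to 4. Krt4, its type II partner, had 5.27, 9.52, 9.32 and 11.46 in wildtype 1 to 4 and 8.52, 9.87, 5.24 and 7.58 in knockout 1 to 4. Both were detected in 6 colons, highest in wildtype 4 and undetected in wildtype 1 and knockout 3, and knockout 1 stood higher than knockout 4 in both. Krt78, a type II keratin of stratified epithelia, spanned 5.14 in wildtype 1 to 7.19 in wildtype 4. Krt12, the type I keratin of the cornea, was detected in all 8 colons, between 7.39 in wildtype 2 and 9.12 in wildtype 1, and so did not follow the rest of its class. Krt24 and Krt76 were detected in 0 colons.

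Keratins of the upper layers of skin did not share a single order. Krt10, the type I member of the pair, had 10.16, 14.04, 13.55 and 14.89 in wildtype 1 to 4 and 11.83, 13.88, 10.26 and 12.90 in knockout 1 to 4. Krt1, its type II partner, had 5.21, 9.71, 9.18 and 10.13 in wildtype 1 to 4 and 6.83, 9.31, 5.63 and 8.61 in knockout 1 to 4. Krt2, a type II keratin of the uppermost living layers of skin, had 5.24, 9.61, 10.06 and 6.32 in wildtype 1 to 4 and 4.75, 8.91, 4.57 and 8.39 in knockout 1 to 4. Krt10 and Krt1 were highest in wildtype 4, but Krt2 was at 6.32 there and between 8.39 and 10.06 in wildtype 2, wildtype 3, knockout 2 and knockout 4. Krt9, a keratin of palm and sole skin, and Krt77 were detected in 0 colons.

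The keratins of activated skin set wildtype 4 apart. Krt16, a type I keratin induced in wounded and overgrowing skin, had 5.49, 6.64, 5.57 and 11.76 in wildtype 1 to 4 and 5.88, 6.24, 5.02 and 6.00 in knockout 1 to 4. The stronger of the 2 Krt6b probes, for a type II partner of Krt16, had 4.70, 7.42, 6.67 and 11.48 in wildtype 1 to 4 and 7.25, 7.45, 4.96 and 6.61 in knockout 1 to 4. Both Krt6a probes were detected in wildtype 4 alone (8.44 and 7.75, against at most 5.38 and 4.77 elsewhere). Krt6a and Krt6b are near-identical genes, so signal may be shared between their probes. Krt17, a keratin of follicles and activated skin, behaved otherwise, with 8.68, 10.68, 10.38 and 8.54 in wildtype 1 to 4 and 8.67, 10.77, 7.56 and 9.59 in knockout 1 to 4. Its highest values were in wildtype 2, wildtype 3 and knockout 2, and wildtype 4 was the lowest wildtype colon.

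Keratins of the hair follicle were high in wildtype 2, wildtype 3, knockout 2 and, to a lesser degree, knockout 4, and low in wildtype 4. Krt79, a type II keratin of the follicle opening and sebaceous duct, had 4.59, 9.04, 8.72 and 4.63 in wildtype 1 to 4 and 4.58, 9.82, 4.77 and 8.48 in knockout 1 to 4. Krt27, a type I keratin of the inner root sheath, had 6.00, 8.59, 8.26 and 4.93 in wildtype 1 to 4 and 5.18, 8.33, 6.10 and 6.62 in knockout 1 to 4. Krt34, a type I keratin of the hair shaft, had 5.08, 7.92, 7.39 and 4.66 in wildtype 1 to 4 and 4.77, 8.74, 4.85 and 6.03 in knockout 1 to 4. In these 3 genes the 4 highest colons were the same, and wildtype 4 lay at or near the bottom in each. Krt27 and Krt34 lie outside the rule for named genes and were singled out after their values were seen.

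Some of the weaker follicle keratins repeated this order. Krt71 (8.27, 7.57 and 7.35) and Krt73 (7.18, 6.56 and 6.39), type II keratins of the inner root sheath, were detected in wildtype 2, wildtype 3 and knockout 2 alone. Krt31 and Krt35, type I keratins of the hair shaft, were detected in the same 3 colons, up to 6.04 and 6.27. Krt33a reached 7.64 and the stronger Krt86 probe 7.89, both in knockout 2. Krt84, a type II keratin assigned to the hair shaft and nail group, was detected in all 8 colons within a narrow span (6.19 to 7.42) and did not share the pattern. Of the 22 probes of the hair shaft and root sheath groups, 8 were detected in 0 colons.

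**Figure D3:**
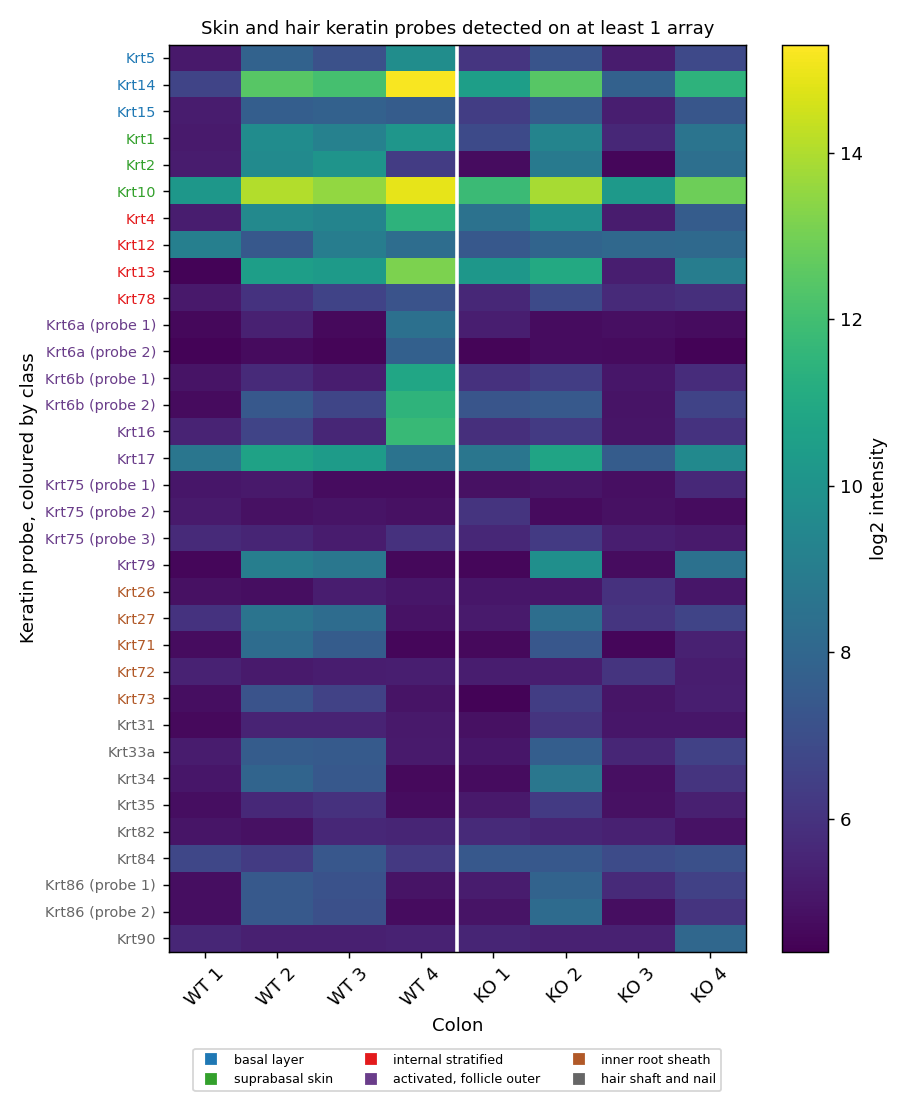
Log2 intensity (colour) of each skin or hair keratin probe detected on at least 1 array, in 4 wildtype (WT) and 4 knockout (KO) colons; label colours give the class. Krt14, Krt10, Krt13, Krt16 and Krt6b are brightest in wildtype 4, while Krt79, Krt27, Krt71 and Krt34 are bright in wildtype 2, wildtype 3 and knockout 2 and dark in wildtype 4.

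The span over the 8 colons was larger for most skin keratins than for the simple keratins, but the classes overlapped. A span above 4 on the log2 scale, a 16-fold difference, was found for 0.199% of the 12559 probes detected on all 8 arrays and for 2 of the 11 keratin probes among them. This limit was chosen after the values were seen. Krt14 had the largest span of all these probes, 8.58, and Krt10 (4.73) ranked at place 19, while Krt17 (3.22) ranked at place 59. The simple keratins spanned 0.21 (Krt8), 0.39 (Krt20), 0.59 (Krt19), 1.13 (Krt18) and 1.35 (Krt7), where the median over all 12559 probes was 0.71. Krt8 lies near the top of the scale, which limits its span. Krt84 (1.23) spanned less than Krt7, the tested Krt75 probe (1.06) less than Krt7 and Krt18, and Krt12 spanned 1.73. Among the probes not detected on every array, Krt13 spanned 8.67, Krt6b 6.78, Krt16 6.74, Krt4 6.22 and Krt2 5.49. Those values start from the background level, and probes that are absent on some arrays and strong on others must span widely.

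**Figure D4:**
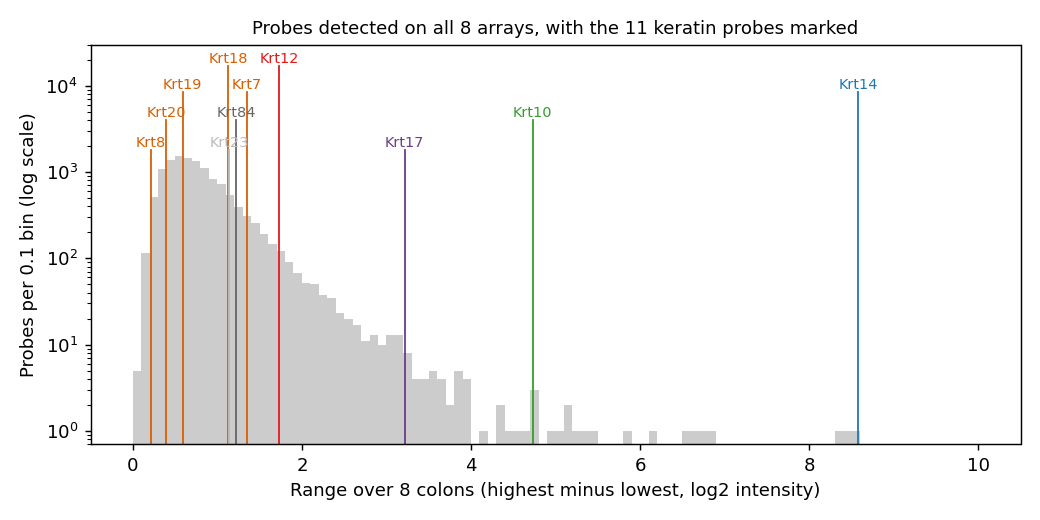
Histogram of the span over 8 colons (highest minus lowest log2 intensity) of the 12559 probes detected on all arrays, with the number of probes on a log scale. Lines mark the 11 keratin probes: the 5 simple keratins lie between 0.21 and 1.35, Krt84 (1.23) and Krt23 lie among them, and Krt12 (1.73), Krt17 (3.22), Krt10 (4.73) and Krt14 (8.58) lie to the right.

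Other genes of stratified epithelium varied in the same colons as the keratins. Of 25 listed genes on the array, 10, 23, 24 and 23 were detected in wildtype 1 to 4 and 20, 24, 13 and 23 in knockout 1 to 4. Their summed intensity was 4258 to 32541 in wildtype and 5935 to 26607 in knockout colons. Lor, which encodes loricrin of the cornified envelope, had log2 intensities of 6.27, 13.16, 13.12 and 13.14 in wildtype 1 to 4 and 10.43, 13.11, 6.98 and 12.16 in knockout 1 to 4. Trp63, the transcription factor of basal stratified cells, was at 4.61 in wildtype 1 and 4.89 in knockout 3, reached 8.33 in wildtype 4 and was detected in 5 colons. Perp (7.44 to 7.88), Tgm3 and Sfn did not share the pattern. Tgm3 was lowest in knockout 4 (8.79) and at 10.28 to 11.88 elsewhere. Sfn was lowest in wildtype 3 (9.26) and highest in knockout 4 (10.51). Serpinb5 was detected in 0 colons.

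Outside the keratin family, the 8 genes closest to the mean of Krt5, Krt14 and Krt15 over the 8 colons were Sprr1b, Col17a1, Teddm3, Lypd3, Klk8, Ier5l, Wfdc12 and Rptn. Pearson's r was 0.978 to 0.993 over 8 colons, given as a description, since the genes were picked for it. Sprr1b and Rptn encode cornified envelope proteins, and Col17a1 encodes a collagen that anchors basal cells. Sprr1b ranged from 4.68 to 11.32 and Rptn from 4.68 to 12.36, while Ier5l moved by 0.79 in all.

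The follicle pattern ran beside that of skeletal muscle. Of 9 listed skeletal muscle genes on the array, 4, 7, 7 and 4 were detected in wildtype 1 to 4 and 5, 8, 5 and 8 in knockout 1 to 4. Their summed intensity was 731 to 6995 in wildtype and 1339 to 16659 in knockout colons, and was highest in wildtype 2, wildtype 3, knockout 2 and knockout 4, the colons with the highest Krt79. Mylpf, a light chain of fast muscle myosin, had log2 intensities of 9.16, 8.87, 10.36 and 8.77 in those colons and at most 5.82 in the others. Wildtype 4, with the highest Krt13, Krt14 and Krt16, had muscle transcripts as low as wildtype 1 (summed intensities of 745 and 731). Myh4 was detected in 0 colons. Markers of follicle and sebaceous gland other than keratins were weak: Foxn1, Lhx2, Far2 and Scd3 were detected in 0 colons, and S100a3, a protein of the hair cuticle, in 4. Msx2 and Awat2 were detected in 3 colons each, Hoxc13 in 2 and Mc5r in 1. Hoxc13 was highest in knockout 1 (5.94) and knockout 3 (5.93), and Awat2 in wildtype 4 (5.94), unlike the follicle keratins. S100a3 was highest in wildtype 2 (6.68), wildtype 3 (6.12), knockout 2 (6.29) and knockout 4 (6.29), the colons with the highest Krt79. It was at 4.80 to 5.21 in the other colons. Summed intensities of these markers were 80 to 156 (wildtype) and 96 to 138 (knockout) for follicle and 60 to 99 and 62 to 110 for sebaceous gland. The part of attached tissue in the keratin values was not tested.

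Between genotypes, limma called 0 of the 29 keratin probes at an adjusted p under 0.05, against 0.0136% of all 14754 probes tested. At an unadjusted p under 0.05 the count was also 0 of 29, against 10.8% of all probes. The groups overlapped in each of the 29, whereas they did not overlap in 7.18% of all probes. The smallest p belonged to Krt84, which had a mean higher in the knockout by 0.55 (SE 0.262, limma adjusted p = 0.474). Wildtype 3, at 7.37, lay inside the knockout range of 6.89 to 7.42.

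Of the 20 skin and hair keratin genes tested, 17 had a lower mean in the knockout, with a median difference of -0.50, beside 50.9% lower and a median of -0.0047 over all genes tested. The members that passed the detection filter are those high in some colons, so this count is a description. Krt16 differed by -1.58 (SE 1.24), Krt5 by -1.10 (SE 0.861), Krt14 by -1.04 (SE 1.68), Krt4 by -1.09 (SE 1.33) and Krt13 by -0.74 (SE 1.81), with limma adjusted p-values of 0.625 to 0.893 for these 5. The 95% intervals were wide, for example from -4.85 to 2.76 for Krt14 and from -4.84 to 3.36 for Krt13. These genes have group SDs of up to 3.66 (Krt13, wildtype, n = 4). The follicle keratins lay nearer 0, with -0.39 for Krt27, -0.16 for Krt34 and 0.17 for Krt79 (SE 1.48).

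These differences changed with single colons. Without wildtype 4 the difference was 0.16 for Krt14, 0.44 for Krt13, 0.30 for Krt6b and -0.11 for Krt16. Without knockout 3 it was 0.45 for Krt13 and -0.12 for Krt14, and 12 of the 20 genes were lower. Without wildtype 1 it was -2.70 for Krt14 and -2.45 for Krt13, with 18 of 20 lower. Without knockout 2, 19 of 20 were lower. With the sex pattern of the mice as a term the differences were 0.60 for Krt14 and 1.40 for Krt13, and 11 of 20 genes were lower. Only 1 wildtype but 3 knockout colons looked male, so sex pattern and genotype are only partly separable. With array position as a term, which runs with genotype, the median over the 20 genes was -1.74.

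**Figure D5:**
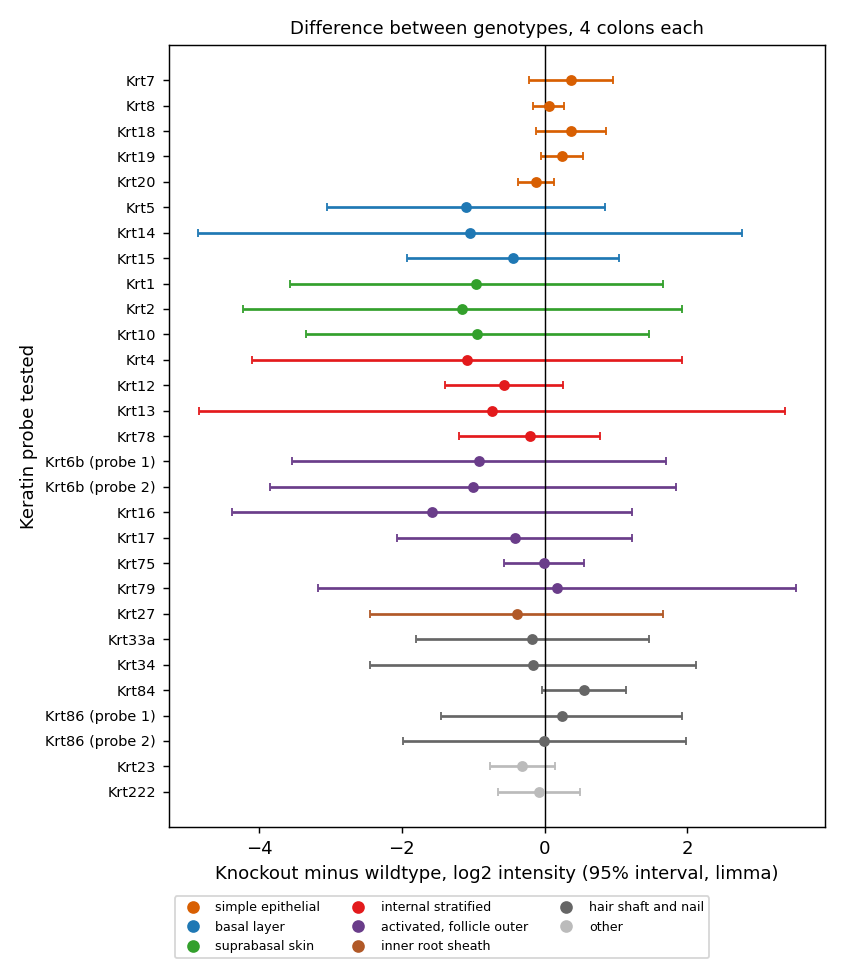
Knockout minus wildtype difference in log2 intensity for the 29 keratin probes tested, with 95% intervals from limma and 4 colons a group. Each interval includes 0; the interval ran from -0.37 to 0.14 for the simple keratin Krt20 and from -4.85 to 2.76 for Krt14.

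Krt23, Krt222 and Krt80 belong to none of these classes. Krt23, a type I keratin found in gut and other simple epithelia, had 10.02, 10.07, 9.98 and 10.75 in wildtype 1 to 4 and 9.89, 9.90, 9.61 and 10.18 in knockout 1 to 4. It was highest in wildtype 4, and the difference was -0.31 (SE 0.199, limma adjusted p = 0.565). Krt222 lay near background, between 4.80 and 5.89, and was detected in 4 colons. Krt80 was detected in 2 colons, at no more than 5.56. Krt90, counted in the hair group, was at 8.05 in knockout 4, the colon with the highest Krt7 and Krt18, and at 5.37 to 5.58 in the others; it was detected in 1 wildtype and 1 knockout colon and was not tested.

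Genes that anchor keratin filaments to junctions, listed with other keratin partners, were not called between genotypes. The list also holds Sfn, Ywhah and Tchp, with a higher mean in the knockout (by 0.43, 0.26 and 0.18), and Eppk1, with a lower mean (-0.29). Of 14 listed genes on the array, 14 were tested, 5 had a higher and 9 a lower mean in the knockout, the median difference was -0.070, and limma called 0 (0 at an unadjusted p under 0.05). Over all probes tested 0.0136% were called and 10.8% had an unadjusted p under 0.05, and 50.9% of all genes tested were lower. Plec, the plakin that links filaments to hemidesmosomes, spanned 13.36 to 13.79 over the colons. Itgb4, the integrin chain of hemidesmosomes, lay at 12.32 to 12.56 and at 13.04 in knockout 4. Ppl, the periplakin of cornifying cells, spanned 8.23 in wildtype 1 to 9.92 in wildtype 4. Summed intensity of the list was 36423 to 40296 in wildtype and 37580 to 42346 in knockout colons.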

How the data were processed

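RNA of 8 whole colons had been amplified, labelled with Cy3 and hybridised to Illumina bead arrays, per the labels' protocols. The authors deposited a table of raw intensity values with a detection p-value per probe and array, and a table of processed intensity values with one distribution on all arrays, used here as an alternative on the log2 scale of the deposited values. The submitters' processing notes name GenomeStudio. Whether background was subtracted is not stated. The raw values were taken as not subtracted, because the lowest value on each array was 102.6 to 120.0. No genome build applies. Probes were named from the platform annotation. All 54 keratin probes matched a GRCm38.p6 gene table by Entrez ID, which changed 0 symbols.

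Background was removed by the normexp method of neqc, which takes the negative controls from the detection p-values, with an offset of 16, followed by quantile normalization and log2 (limma 3.58.1 in R 4.3.3). The probes detected (p under 0.05) on 4 or more of 8 arrays were tested for genotype with lmFit and eBayes, two-sided, with Benjamini-Hochberg adjustment over all 14754 probes tested, and checked on simulated data. A gene with several tested probes (Krt6b and Krt86) is represented by the probe with the highest mean. The Krt6b probes had the same sign (-1.00 and -0.92), and the Krt86 probes differed (0.24 and -0.00182). The summed intensity of a list is the sum over its genes of the normalized linear values less the offset. The number of arrays limits the precision.

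The members, classes and marker lists were chosen with earlier results of these data known. The rule names the 5 simple keratins, the tested basal, suprabasal, internal and activated keratins, Krt23, Krt80, keratins past the threshold, and the 8 genes closest to the basal keratins; other keratins are given by range and count. Alternatives covered background correction, normalization, the processed table, the filter, array position on the beadchip, array weights, the variance prior, sex pattern, the replicate number as a block, the mean of a gene's probes, and leaving out each colon.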

Additional observations from a re-analysis of the deposited data

Results flagged for a closer look

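In 78 groups of 4 colons with a keratin probe detected in at least 1 colon, 11 held 1 colon far from the other 3. Groups entered through a detected colon and many keratin probes vary together, so no rate by chance applies to this count. Within their group, the Krt90, Krt75, Krt26, Krt72, Krt31 and Krt6a probes below were detected in the named colon alone. In knockout 4, Krt7 was at 12.45 (others 11.19 to 11.35), Krt90 at 8.05 (others 5.39 to 5.53) and 1 of the weaker Krt75 probes at 5.68 (others 4.86 to 5.00). In wildtype 4, Krt23 was at 10.75 (others 9.98 to 10.07), the weaker Krt6b probe at 10.83 (others 4.98 to 5.71) and 1 of the Krt6a probes at 7.75 (others 4.52 to 4.71). In wildtype 1, Krt15 was at 5.23 and not detected (others 7.59 to 7.81). In knockout 3, Krt26 was at 5.96 (others 5.04 to 5.08) and Krt72 at 6.04 (others 5.28 to 5.29), both near background. In knockout 2, Krt31 was at 6.04 (others 4.90 to 5.08), and in knockout 1 another Krt75 probe was at 6.04 (others 4.72 to 4.91). The cause of these values was not tested.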

How the results depend on the processing

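The count of keratin probes called was 0 under every alternative run, and the smallest adjusted p of a keratin gene was 0.212 (Krt84 without wildtype 3). At an unadjusted p under 0.05 the count was 0 to 4 probes, with 4 without wildtype 1. Of 551 values of single genes, 493 kept the sign and 58 changed it, in 18 of 27 genes, none of them called; the cause was not tested. With array position as a term, where positions 1 to 4 were wildtype and 5 to 8 knockout so that position ran with genotype, the simple keratin median was -0.0189, and Krt18 was at -0.155, Krt20 at 0.159, Krt222 at 0.29, Krt34 at 0.214, Krt7 at -0.454, Krt75 at 0.34, Krt79 at -1.12, Krt8 at -0.0189 and Krt86 at -0.13. With the sex pattern as a term Krt13 was at 1.40, Krt14 at 0.596, Krt15 at 0.0837, Krt4 at 0.358, Krt6b at 0.182 and Krt78 at 0.0196. Sex pattern was uneven between genotypes, with 1 wildtype and 3 knockout colons of male pattern, so they are only partly separable. With array weights Krt222 was at 0.177, Krt75 at 0.127, Krt79 at -1.29 and Krt86 at -0.432. With median scaling Krt75 was at 0.0178 and with cyclic loess Krt8 at -0.00302. Without wildtype 4 and knockout 4 together, chosen after seeing the data, the simple median was 0.0754, and Krt13 was at 0.398, Krt222 at 0.042, Krt6b at 0.289, Krt75 at 0.249, Krt78 at 0.158, Krt79 at -1.06 and Krt86 at -0.198. Leaving out each colon in turn, the simple median ran from 0.077 to 0.30 and the skin and hair median from -1.01 to -0.11. Single genes ran from -2.45 to 0.45 (Krt13), -2.70 to 0.16 (Krt14), -0.96 to 0.11 (Krt17), -0.26 to 0.10 (Krt222), -1.06 to 0.16 (Krt27), -0.65 to 0.23 (Krt33a), -1.04 to 0.39 (Krt34), -1.96 to 0.30 (Krt6b), -0.23 to 0.13 (Krt75), -0.57 to 0.11 (Krt78), -0.80 to 0.95 (Krt79) and -0.28 to 0.69 (Krt86). The skin and hair median was -1.74 with array position, -0.89 with array weights and -0.052 with the sex pattern. It was -0.36 without background correction and in the authors' table. With no filter it was -0.16, over all 39 genes instead of the 20 tested, of which 17 stayed lower. The labels do not state that shared replicate numbers pair the colons. Deviations of same-numbered colons correlated at 0.14, 0.21, -0.18 and -0.038. Differently numbered colons were not compared, so these values cannot decide whether colons are paired. With the replicate block 0 keratin probes were called, with the simple median at 0.25 and the skin and hair median at -0.50.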
